A study of Mus musculus with 4 samples.

Results

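The AP-1 genes described here are Jun, Junb, Jund, Fos, Fosb, Fosl2, Batf, Atf3 and Maff, 9 of the 27998 genes in the counts, taken by their symbols. The set was selected on Jun, which had been found lower in Bcl3-/- cells in these same libraries, so every difference between the genotypes in the 9 genes is given as a description and carries no p-value. The name of the set, a family with lower Jun, holds for Jun. Summed over the 9 genes, T cells had 867 CPM in WT1, 882 in KO1, 1039 in WT2 and 1038 in KO2, most of it from Jund. CPM are UMI counts scaled to the same total in every library and class.

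The libraries came from spleens of 2 mixed bone marrow chimeras on day 8 after infection with the Armstrong strain of lymphocytic choriomeningitis virus (LCMV). Rag1-/- hosts, which make no T or B cells of their own, had been irradiated and given WT (CD45.1) and Bcl3-/- (CD45.2) marrow on the C57BL/6 background. From each chimera, CD8+ cells that bound the GP33 tetramer of the virus were sorted by genotype into 1 WT and 1 Bcl3-/- library for 3′ single-cell RNA-seq, which counts each captured molecule once by its unique molecular identifier (UMI). Chimera 1 gave WT1 and KO1, and chimera 2 gave WT2 and KO2, so n = 2 libraries per genotype. The p-values below rest on the spread between the 2 libraries of a genotype, which are from 2 animals. They leave out the pairing by chimera, except where a replicate block is named. Both genotypes shared the irradiated host, the virus and the day. The CD45 allele and the Bcl3 genotype move together here and cannot be told apart. The host keeps its own myeloid cells, and whether these fell into the CD45.2 gate is not given in the sources used here, so myeloid cells of a Bcl3-/- library need not lack Bcl3. After filtering there were 4941 cells in WT1, 5366 in KO1, 8092 in WT2 and 6494 in KO2, with medians of 3571, 3620.5, 2019 and 2948 UMIs per cell. T cell clusters held 93.6%, 92.2%, 95.4% and 93.2% of them, and in these Cd3e stood at 508, 852, 433 and 983 CPM and Cd8a at 554, 496, 515 and 523 CPM in the same order. Cd3e was thus higher in both Bcl3-/- libraries than in both WT libraries, while Cd8a overlapped. The part of this in a per-cell gate on Cd3 genes, used below, was not tested.

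The target of the knockout, Bcl3, had 29.3 CPM in T cells of WT1, 21.5 in KO1, 108 in WT2 and 84.6 in KO2. Its transcript was thus still counted in the Bcl3-/- libraries, and the deleted part of the gene is not given in the sources used here, so 3′ counts from outside that part do not check the genotype.

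AP-1 is a transcription factor made of 2 basic leucine zipper (bZIP) proteins held together by their zippers. Jun proteins pair with each other or with Fos proteins, whereas Fos proteins need a partner of another kind, and in activated T cells the kinases downstream of the antigen receptor raise Fos and Jun within a short time. Batf pairs with Jun proteins and binds beside Irf4 in effector T cells, and Bcl-3 is a nuclear IκB protein that works with the p50 and p52 subunits of NF-κB.

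The 250 bases before the start site of Jun, Fos and Junb are shown because the results below turn on these 3 genes. They are from RefSeq on GRCm38.p6, 5′ to 3′ on the strand of the gene, with capitals where 1 of 4 motifs was found. The motifs, searched on both strands, were TGANTCA and TGACNTCA (the AP-1 and CRE-like letters), GGGNNNNNCC (NF-κB-like letters) and the CArG box bound by Srf. Jun (chr4:95052223-95052472, minus strand) held TGACATCA at bases -45 to -38 before the start and 3 overlapping matches to GGGNNNNNCC between -97 and -83. Fos (chr12:85473640-85473889, plus strand) held 1 match to GGGNNNNNCC, on the opposite strand, and Junb (chr8:84978749-84978998, minus strand) held none of the 4.
Jun: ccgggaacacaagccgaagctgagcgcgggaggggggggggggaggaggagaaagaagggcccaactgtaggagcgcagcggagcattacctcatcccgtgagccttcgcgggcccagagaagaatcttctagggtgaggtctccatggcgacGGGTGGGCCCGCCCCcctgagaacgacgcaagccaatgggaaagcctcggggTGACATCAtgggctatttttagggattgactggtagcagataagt
Fos: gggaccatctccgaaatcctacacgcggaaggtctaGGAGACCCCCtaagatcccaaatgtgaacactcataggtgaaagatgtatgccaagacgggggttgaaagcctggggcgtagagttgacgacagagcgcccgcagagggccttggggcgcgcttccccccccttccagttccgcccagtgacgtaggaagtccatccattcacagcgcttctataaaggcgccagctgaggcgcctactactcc
Junb: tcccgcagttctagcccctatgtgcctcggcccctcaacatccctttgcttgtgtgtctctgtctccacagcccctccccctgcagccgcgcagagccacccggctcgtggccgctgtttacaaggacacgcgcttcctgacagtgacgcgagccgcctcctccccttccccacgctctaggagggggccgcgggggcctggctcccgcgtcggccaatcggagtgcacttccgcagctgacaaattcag
Of 32817 RefSeq windows of this length, 7.49% held TGACNTCA, 6.75% TGANTCA, 45.8% GGGNNNNNCC and 1.47% a CArG box. A match is a description of letters, not of binding.

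Jun encodes c-Jun, the founding Jun protein. Its gene lies on chromosome 4 from 95049034 to 95052222 (minus strand, mm10). In T cells Jun had 21.8 CPM in WT1 and 26.4 CPM in WT2, against 9.03 CPM in KO1 and 7.2 CPM in KO2. Both Bcl3-/- libraries lay below both WT libraries, with means of 24.1 ± 3.23 CPM (SD, n = 2) in WT and 8.12 ± 1.29 CPM (SD, n = 2) in Bcl3-/- cells. Because counts are summed over the cells of a class, fewer cells with Jun and less Jun per cell cannot be told apart from these levels. The log2 ratio of Bcl3-/- over WT was -1.27 in chimera 1 (95% interval -1.54 to -1.02, counting error only) and -1.87 in chimera 2 (-2.16 to -1.60). edgeR's quasi-likelihood fit on summed counts gave -1.57 (SE 0.17) in T cells and -1.32 (SE 0.12) in all cells. Jun was the 1 AP-1 gene of the 8 tested that this fit called in all cells, where 0.363% of 11566 genes were called, and the 1 of 6 in T cells, where 0.270% of 11092 were. Without a filter on low counts Jun was not called in T cells. As the set was selected on this difference, nothing is read from those counts. Fosb was too low to be tested in either fit, and Atf3 and Maff too low in T cells.

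**Figure D1:**
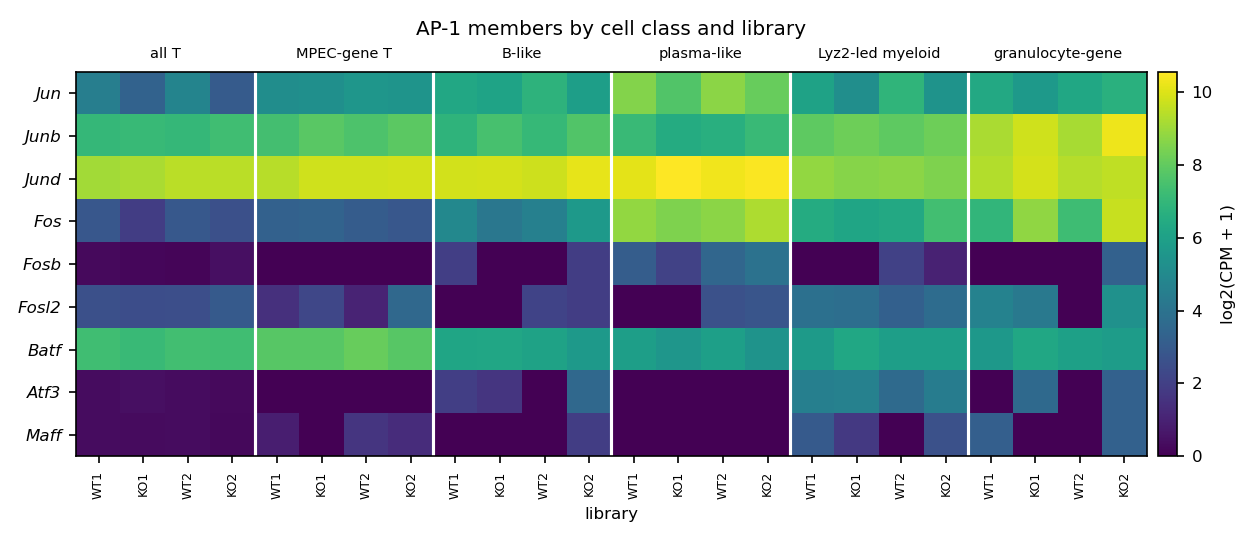
Level of the 9 AP-1 genes as log2(CPM + 1) (colour) in 6 classes of clusters (blocks) and the 4 libraries (columns). Jun is darker in the KO columns of the all T block, Jun is brightest in plasma-like cells, Fos in plasma-like cells of the WT and granulocyte-gene clusters of the KO libraries, Batf in T cells, and Fosb, Atf3 and Maff are near 0 in T cells.

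Few T cells held a Jun UMI. With each cell thinned to 1000 UMIs, 2.06% of T cells in WT1 (95 of 4605) and 2.36% in WT2 (177 of 7506) had one, against 0.891% in KO1 (44 of 4941) and 0.646% in KO2 (39 of 6041). Their exact 95% intervals, in the same order 1.67% to 2.52%, 2.03% to 2.73%, 0.648% to 1.19% and 0.460% to 0.882%, cover the counting of cells and not the spread between animals. Without thinning the WT shares were 7.31% and 5.28% and the Bcl3-/- shares 3.09% and 1.90%. Free RNA gave a part of these counts. Barcodes with 1 to 50 UMIs, taken as empty droplets, had Jun at 32.0 CPM in WT1, 11.0 in KO1, 45.5 in WT2 and 15.6 in KO2 from 11 to 28 UMIs, above the T cells of the same library each time. The myeloid gene Lyz2 stood in T cells at 17.4% (WT1), 15.2% (KO1), 14% (WT2) and 10.2% (KO2) of its level in empty droplets, which was taken as the share of their UMIs from free RNA, on the assumption that T cells make no Lyz2. Taking that part off gave Jun levels of 19.7 CPM in WT1, 8.67 in KO1, 23.3 in WT2 and 6.25 in KO2. With the share set by Cd79a or Jchain instead, Jun was at 20.3 to 24.1 CPM in the WT and 6.33 to 8.74 CPM in the Bcl3-/- libraries. This correction was chosen after the data had been seen, and the part of free RNA in the difference was not tested.

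**Figure D2:**
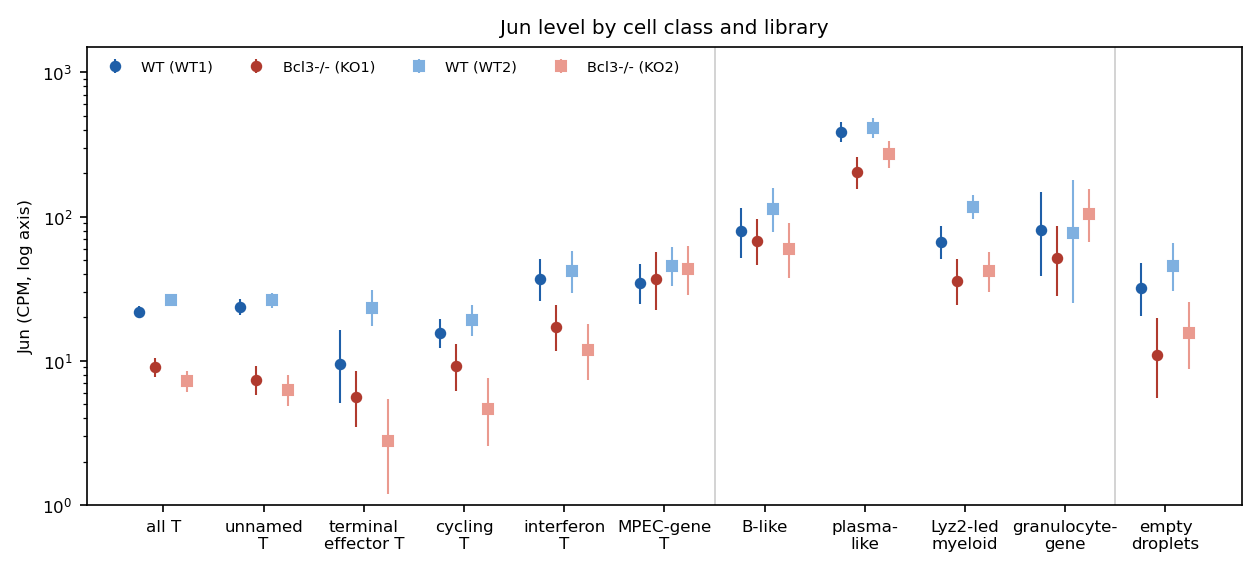
Jun level (CPM, log axis) by cell class, 1 point per library with its 95% counting interval, with WT in blue, Bcl3-/- in red, circles for chimera 1 and squares for chimera 2. In all T cells the WT points are at 21.8 and 26.4 CPM and the Bcl3-/- points at 9.03 and 7.2 CPM, whereas in the MPEC-gene clusters all 4 lie between 34.6 and 45.6 CPM.

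Within T cells the clusters did not all follow the pooled level. In clusters led by genes of memory precursor effector cells (MPECs) and naive cells, such as Tcf7 and Ccr7, Jun had 34.6 CPM in WT1 (40 UMIs), 36.8 in KO1 (20 UMIs), 45.6 in WT2 (43 UMIs) and 43.4 in KO2 (28 UMIs). The genotypes overlapped there, with log2 ratios of 0.09 in chimera 1 (95% interval -0.76 to 0.90) and -0.07 in chimera 2 (-0.82 to 0.65). Against the empty droplets of the same library, Jun in these clusters was higher in KO1 and KO2 (11.0 and 15.6 CPM in the droplets) and close to the droplets in WT1 and WT2 (32.0 and 45.5 CPM). Some of these cells were Cd4-positive, with Cd4 at 19.1, 46.0, 24.4 and 21.7 CPM in WT1, KO1, WT2 and KO2 against 1.80 to 2.91 CPM in all T cells. Without the 17, 17, 21 and 9 cells that held a Cd4 UMI, Jun was at 31.4, 34.1, 45.9 and 42.3 CPM. A CD4 T cell without a captured Cd4 UMI stays in this count, and Cd4 was among the 10 leading genes of the KO1 cluster, so the part of CD4 T cells in these levels was not tested. In T cells outside these clusters the ratios were -1.35 (-1.62 to -1.07) and -2.09 (-2.40 to -1.78). Naming was by markers alone, and KO1 and KO2 each had an unnamed cluster with Tcf7 among its 10 leading genes, of 724 and 1354 cells, in which Jun was at 9.75 and 5.68 CPM. The difference between the cluster types was not tested.

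Among the other T cell clusters, Jun in the interferon clusters, led by genes such as Isg15 and Ifit3, was at 36.7 CPM in WT1 and 42 in WT2 against 17.1 in KO1 and 11.8 in KO2. In cycling clusters it was at 15.5 and 19.2 CPM against 9.20 and 4.61 CPM. In terminal effector clusters, led by genes such as Zeb2 and Cx3cr1, WT1 had 9.5 CPM from 13 UMIs and WT2 had 23.4 CPM, and KO1 and KO2 had 5.59 and 2.78 CPM. Bcl3-/- libraries lay below WT libraries in these 3 types, though in terminal effectors the interval of chimera 1 spanned 0 (log2 ratio -0.77, 95% interval -1.82 to 0.35). The clusters with no name, which hold most T cells, were at 23.5 and 26.3 CPM against 7.41 and 6.25 CPM. Genes of these types moved with the genotype as well. The summed terminal effector markers stood in T cells at 1419 CPM (WT1), 2531 (KO1), 1768 (WT2) and 2595 (KO2), the cycling markers at 674, 478, 687 and 601 CPM and the interferon markers at 448, 342, 636 and 431 CPM, and the part of cluster makeup in the pooled Jun level was not tested.

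**Figure D3:**
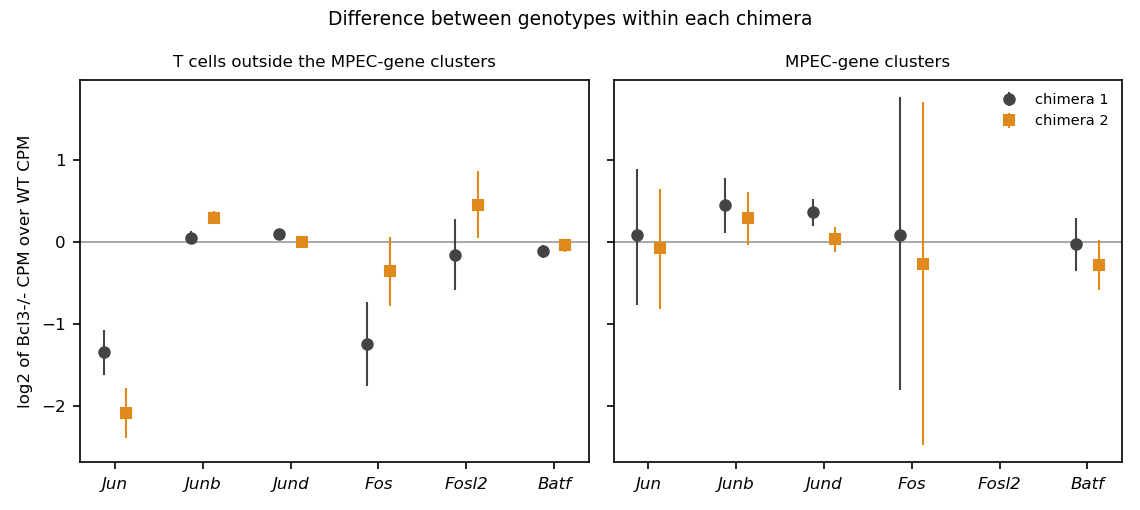
log2 of Bcl3-/- CPM over WT CPM for 6 AP-1 genes, by chimera, in T cells outside the MPEC-gene clusters (left) and within them (right), with 95% counting intervals. Outside these clusters Jun is at -1.35 and -2.09, within them at 0.09 and -0.07, and no Fosl2 point is drawn where a library had fewer than 4 UMIs.

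Junb and Jund, the other Jun proteins, share the zipper of c-Jun, and Junb is known to restrain it in some settings. Junb in T cells was at 130 CPM in WT1, 135 in KO1, 129 in WT2 and 157 in KO2. Both Bcl3-/- values were above both WT values, by a log2 ratio of 0.06 in chimera 1 (-0.02 to 0.14) and 0.28 in chimera 2 (0.20 to 0.36), and edgeR's fit gave 0.16 (SE 0.09) without a call. Jund in T cells was at 548, 587, 707 and 705 CPM in WT1, KO1, WT2 and KO2, which is to say that the chimeras differed more than the genotypes, and the fit gave 0.03 (SE 0.14). Of the 6 tested in T cells, Jun and Fos were lower and Junb higher in both Bcl3-/- libraries than in both WT libraries, where 19.0% of genes tested were lower and 24.2% higher in that sense. In the MPEC-gene clusters Junb was at 165 and 190 CPM in WT and 226 and 232 CPM in Bcl3-/- libraries, which do not overlap. The interval of chimera 2 spanned 0 there (log2 ratio 0.29, -0.03 to 0.61). In these clusters the terminal effector markers were at 259 and 297 CPM in WT against 471 and 418 CPM in Bcl3-/- libraries. The NK cell markers were at 38.1 and 35.0 against 68.1 and 107 CPM, and the heat shock genes at 4074 and 3871 against 3616 and 3281 CPM. Their part in Junb was not tested. The gene of Junb overlaps Prdx2, and that of Jun the noncoding gene Junos, each on the opposite strand. Whether the counting used strand is not given in the sources used here, and in T cells Prdx2 was at 170 to 195 CPM and Junos at 0.271 CPM or less.

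Fos, which encodes the protein that joins c-Jun in classical AP-1, was scarce in T cells. It had 6.18 CPM in WT1, 2.73 in KO1, 6.40 in WT2 and 4.99 in KO2. The Bcl3-/- values lay below the WT values, with a log2 ratio of -1.18 in chimera 1 (-1.67 to -0.70) and -0.36 in chimera 2 (-0.77 to 0.05), and edgeR's fit gave -0.72 (SE 0.27) without a call. Leaving out 1 library moved the fitted value to between -1.17 and -0.39. With chimera as a replicate block, Fos was called beside Jun in T cells, at -0.75 (SE 0.22), in a fit that called 11.8% of genes. With the block in all cells, 9.65% of genes were called, and of the 8 tested AP-1 genes Jun was. Empty droplets had Fos at 26.6, 13, 26.0 and 53.1 CPM in WT1, KO1, WT2 and KO2, and taking off the free part as for Jun left T cells at 1.86, 0.875, 3.21 and -0.44 CPM. With the share set by Cd79a the values were 4.07, 0.771, 4.06 and 1.16 CPM, and with Jchain 3.17, 1.22, 3.70 and -0.02 CPM. Both Bcl3-/- values lay below both WT values with each of the 3 markers, while the levels themselves moved with the marker. In T cells taken by a per-cell gate on Cd3 genes, a setting added after seeing the data, the fitted value was 0.32, so the direction of Fos in T cells depended on how they were taken.

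Fosl2 (Fra-2) in T cells was at 5.04 CPM in WT1, 4.69 in KO1, 4.80 in WT2 and 7.0 in KO2, with overlapping genotypes. Fosb had 2 to 7 UMIs in the T cells of a library, 0.114 to 0.360 CPM, and its gene lies 498411 bases from Bcl3 on chromosome 7. Batf, the partner of Jun proteins at Irf4 sites, was at 156, 142, 164 and 156 CPM in T cells of WT1, KO1, WT2 and KO2. Its genotypes overlapped, at 0.93 of the WT mean, and it was highest in MPEC-gene clusters (225, 221, 271 and 223 CPM) and lowest among named T clusters in terminal effectors (90.6, 105, 111 and 111 CPM). Atf3, a stress-induced repressor, had 4 to 7 UMIs and Maff, a small Maf protein, 3 to 5 UMIs in the T cells of a library.

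The sorted cells also held small clusters of other types. In plasma-like, B-like, Lyz2-led and granulocyte-gene cells Jun and Fos stood above the T cells of the same library, whereas Batf stood below them. Plasma-like cells, led by Jchain, were 50 in WT1, 40 in KO1, 78 in WT2 and 48 in KO2. They made up 0.739% to 1.01% of cells in a library but gave 23.2%, 19.8%, 20.9% and 28.5% of all Jun UMIs and 44.9%, 31.7%, 44.2% and 30.8% of all Fos UMIs. Jun there was at 389 CPM in WT1 and 412 in WT2 against 202 in KO1 and 271 in KO2. The Bcl3-/- libraries lay below the WT libraries, with log2 ratios of -0.94 (-1.39 to -0.51) and -0.60 (-0.99 to -0.22). Of thinned plasma-like cells, 26.0% (13 of 50) in WT1 and 27.3% (21 of 77) in WT2 had a Jun UMI, against 10.0% (4 of 40) in KO1 and 14.6% (7 of 48) in KO2. Without thinning the shares were 80.0% and 68.0% in WT and 35.0% and 47.9% in Bcl3-/- libraries. Fos in plasma-like cells was at 453, 363, 415 and 614 CPM in WT1, KO1, WT2 and KO2, lower in the Bcl3-/- library of chimera 1 and higher in that of chimera 2. Jund was at 1105 and 1272 CPM in WT and 1490 and 1425 CPM in Bcl3-/- plasma-like cells. The heat shock genes summed there to 2407 and 2342 CPM in WT and 2013 and 1785 CPM in Bcl3-/- libraries. The early response genes were at 2158 and 2190 CPM in WT and 2315 and 2459 CPM in Bcl3-/- libraries. The part of both lists was not tested.

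B-like cells, 105, 134, 120 and 127 in WT1, KO1, WT2 and KO2, had Jun at 78.9, 67.6, 113 and 59.8 CPM. Both Bcl3-/- values were below both WT values, but the counts were small (27, 32, 34 and 22 UMIs) and the interval of chimera 1 spanned 0 (log2 ratio -0.22, -1.01 to 0.57). Junb was at 114 and 133 CPM in WT and 178 and 204 CPM in Bcl3-/- B-like cells. Other lists moved with them, the cycling markers at 474 and 523 CPM in WT against 175 and 190 CPM in Bcl3-/- libraries, the early response genes at 3516 and 3426 against 4092 and 5279 CPM and the heat shock genes at 3852 and 3820 against 2974 and 2839 CPM. The part of cycling and handling in Jun and Junb was not tested. Immunoglobulin genes of the B cell list were not analysed here, and these cells were named from Cd79a, Ms4a1, Ebf1 and other markers.

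Myeloid-like cells fell into 2 kinds. Clusters led by Lyz2 held 118, 109, 146 and 114 cells in WT1, KO1, WT2 and KO2. Jun was at 67.1 CPM in WT1 and 117 in WT2 against 35.9 in KO1 and 42.1 in KO2, which do not overlap, with log2 ratios of -0.90 (-1.59 to -0.25) and -1.48 (-2.03 to -0.95). C1qa, a macrophage gene, was at 626 and 715 CPM in WT and 518 and 400 CPM in Bcl3-/- libraries, the summed myeloid markers, led by Lyz2, at 32878 and 36869 against 29842 and 29043 CPM, and the interferon markers at 848 and 907 against 606 and 585 CPM. In KO1 and KO2 a cluster with C1q genes had been kept apart for its Cd3e, and in WT none was. The part of this makeup in the lower Jun was not tested. Atf3 was found mainly here, at 22.7, 23.9, 11.5 and 20.5 CPM from 11 to 20 UMIs a library. Clusters led by granulocyte genes such as S100a9 and S100a8 held 43 cells in WT1, 112 in KO1, 32 in WT2 and 101 in KO2. Their Jun was at 80.8, 51.6, 77.5 and 104 CPM in the same order, from 5 to 24 UMIs, and the genotypes overlapped.

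**Figure D4:**
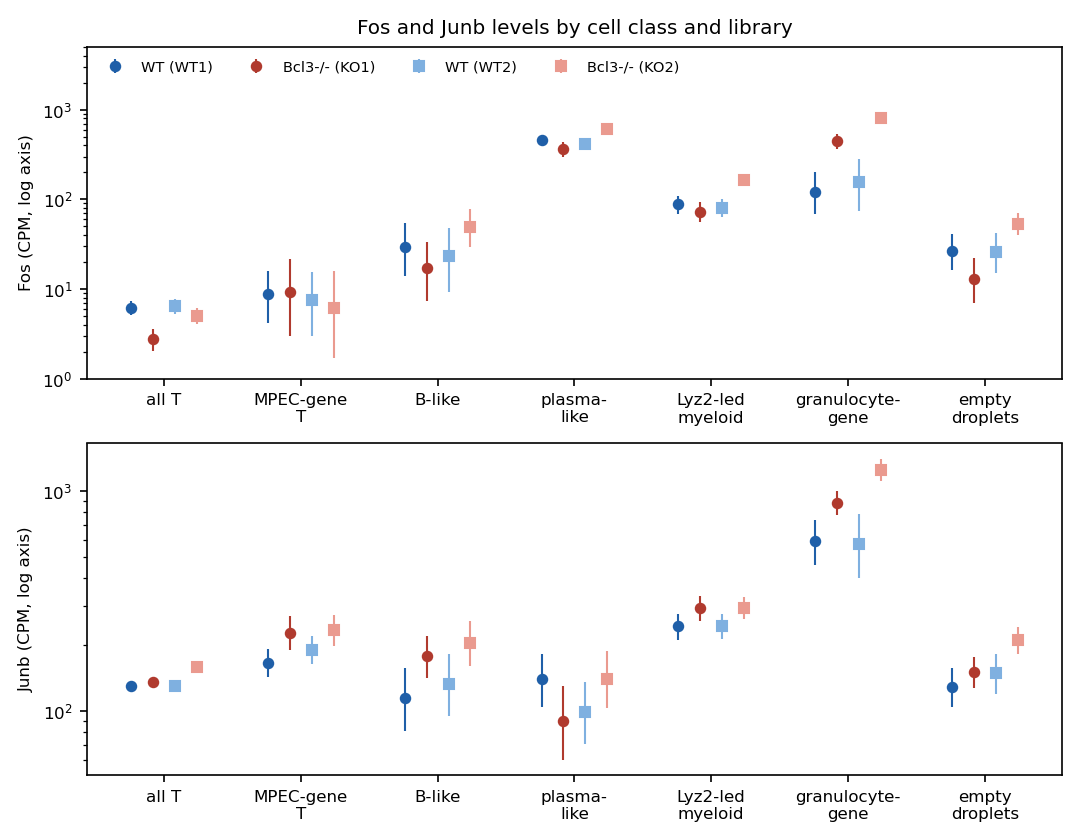
Fos (top) and Junb (bottom) levels (CPM, log axes) by cell class, 1 point per library with its 95% counting interval, with WT in blue, Bcl3-/- in red, circles for chimera 1 and squares for chimera 2. In granulocyte-gene clusters both genes are higher in both Bcl3-/- libraries, whereas Fos in T cells lies at 6.40 CPM or less in all 4 libraries.

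The levels of Fos and Junb in the granulocyte-gene clusters stood apart by genotype, while the thinned share of cells with a Fos UMI overlapped. Fos was at 121 CPM in WT1 (15 UMIs) and 155 in WT2 (10 UMIs) against 442 in KO1 (120 UMIs) and 803 in KO2 (186 UMIs). The Bcl3-/- libraries were above the WT libraries by 3.65-fold in chimera 1 and 5.19-fold in chimera 2. Junb was at 590 and 573 CPM in WT and 884 and 1252 CPM in Bcl3-/- libraries. The share of thinned cells with a Fos UMI was 18.4% (WT1), 21.4% (WT2), 21.4% (KO1) and 31.6% (KO2), and without thinning 23.3%, 21.9%, 31.2% and 38.6%. In the Lyz2-led clusters Fos was at 87.6, 72.9, 80.5 and 164 CPM in WT1, KO1, WT2 and KO2, and the genotypes overlapped. Camp, a gene of neutrophil precursors, was at 13857, 9545, 14578 and 15071 CPM in WT1, KO1, WT2 and KO2, and Il1b, high in mature neutrophils, at 1285 and 666 CPM in WT and 1812 and 1702 CPM in Bcl3-/- libraries. The plasma cell gene Jchain was at 722 CPM in KO1 and 46.5 to 82.1 CPM in the other 3 libraries. The summed erythroid markers were at 1664 CPM in WT1 and 14.7 to 47.5 CPM in the other 3, and the cycling markers at 784 and 496 CPM in WT and 409 and 333 CPM in Bcl3-/- libraries. The 28 early response genes, which can rise while a tissue is handled, summed there to 5171 CPM in WT1, 6775 in KO1, 4679 in WT2 and 7467 in KO2. Dusp1, one of them, was at 129, 177, 139 and 566 CPM. The heat shock genes summed to 2198, 1377, 1735 and 1097 CPM. The part of handling, of cell maturity, of other cells and of host origin in the Fos and Junb values was not tested.

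The pattern of each gene over the 12 library and class units (T, B-like and myeloid-like, 4 libraries each) was set beside that of 8010 other genes as Pearson's r of log2(CPM + 1), given without a p because units share libraries and depth. Jun was most like Ms4a4c (r = 0.955), Capg, Mrpl23, Apoe and Fam212a (0.93). Fos was most like Tpd52 (0.969), Ube2l6, Tcp11l1, Mpp1 and Cd300lf (0.967). Among the AP-1 genes, Fos was like Atf3 (0.912) and Junb (0.862), Jun like Fos at 0.665, and Batf ran against both (-0.83 to Jun and -0.82 to Fos), since it was highest in T cells. In single cells thinned to 1000 UMIs, a Jun and a Fos UMI were found together in 7 of 50 plasma-like cells in WT1, where the product of the shares is 5.2, in 2 of 40 in KO1 (1.1), in 9 of 77 in WT2 (7.36) and in 3 of 48 in KO2 (2.33). In granulocyte-gene clusters the count was 2 in WT1 (product 0.921), 4 in KO1 (1.28), 0 in WT2 (0.429) and 8 in KO2 (3.47). In T cells it was 1, 0, 2 and 1 in WT1, KO1, WT2 and KO2, where the products are 0.825, 0.169, 1.23 and 0.207. These are counts of cells, described without a test.

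Genes around AP-1 were compared between the genotypes with the same edgeR fits, from lists of the family, its kinases and partners, its known targets, and genes that rise during tissue handling. Over all 11092 genes tested in T cells, 1536 had an unadjusted p under 0.05 and DESeq2 called 172, against which the counts below are to be read. Of 23 other bZIP genes tested in T cells, such as Atf4 and Xbp1, 0 were called in either direction (1 at an unadjusted p under 0.05, and 0 with DESeq2). Of 23 kinases, regulators and partners 0 were called (3 at an unadjusted p under 0.05). In T cells 11 of them were higher and 1 lower in both Bcl3-/- libraries than in both WT libraries. Of all genes tested, 24.2% were higher and 19.0% lower in that sense. The median log2 fold change of the 23 was 0.15. DESeq2 called Srf, which binds the CArG box, higher at a log2 fold change of 0.76 (SE 0.22, adjusted p = 0.0402). Srf in T cells was at 10.8 and 9.26 CPM in WT and 16.1 and 18.3 CPM in Bcl3-/- libraries. Of 12 known targets tested, Cd69, an early activation marker that holds T cells in tissue, fell by 0.88 on the log2 scale (SE 0.09, edgeR adjusted p = 0.0259), from 42.4 and 44.5 CPM in WT to 23.2 and 24.3 CPM. Without a filter on low counts Cd69 was not called in T cells. Of the 12, 2 had an unadjusted p under 0.05. The median log2 fold change was 0.10 over the 12 targets and 0.01 over all genes tested.

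**Figure D5:**
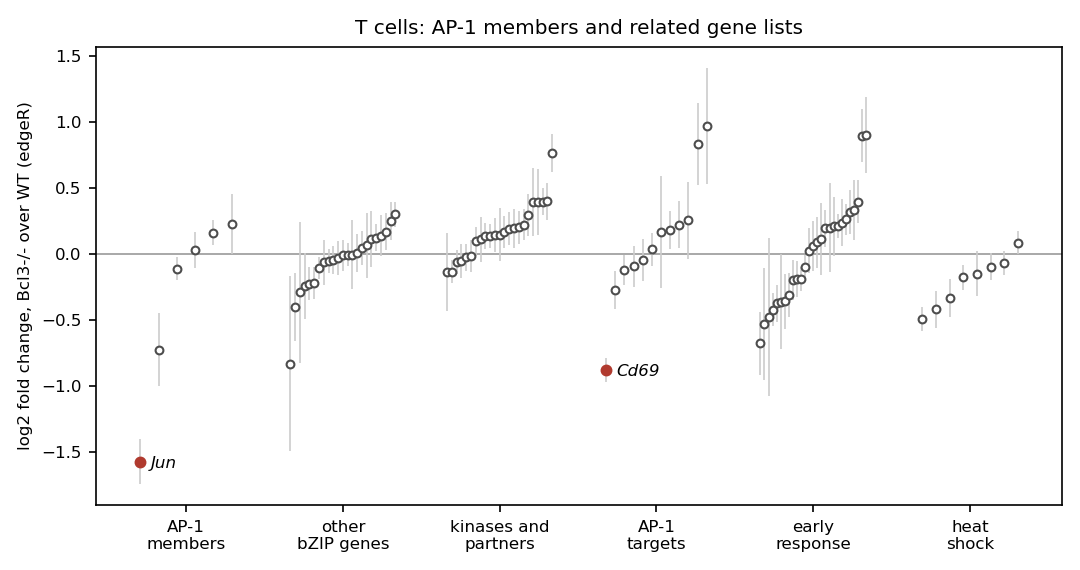
log2 fold change of Bcl3-/- over WT in T cells (edgeR, grey bars 1 SE) for the AP-1 genes and 5 related lists, each sorted, with filled red points for genes called at an adjusted p of 0.05. Jun at -1.57 and Cd69 at -0.88 are the filled points. The set was selected on Jun in these libraries, so nothing is read from the fill of its point. The points of the other lists lie on both sides of 0, with 7 of the 8 heat shock genes below it.

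Of 27 early response genes tested in T cells, which like Fos and Jun can rise while a tissue is handled, 0 were called (7 at an unadjusted p under 0.05), and DESeq2 called Zfp36, an RNA decay factor, at 0.89 (SE 0.24, adjusted p = 0.0221). Their summed level in T cells was 2883 CPM in WT1, 3312 in KO1, 3452 in WT2 and 3847 in KO2. Klf2 led it, at 1163, 1487, 1383 and 1591 CPM. Of the 28 listed, 4 were higher and 8 lower in both Bcl3-/- libraries than in both WT libraries, against 24.2% and 19.0% of all genes tested. Of 8 heat shock genes tested 0 were called (2 at an unadjusted p under 0.05), DESeq2 called Hsp90aa1 lower at -0.50 (SE 0.11, adjusted p = 0.00217), and the sums over the 11 listed were 4398, 3582, 4056 and 3243 CPM, led by Hspa8. With chimera as a replicate block, edgeR called 5 early response genes higher (Ier3, Dusp2, Zfp36, Zfp36l1 and Klf2) and 2 lower (Rgs1 and Nfkbia), 3 heat shock genes lower (Hspa8, Hsp90aa1 and Hsp90ab1), Atf1, Il2, Mapk9, Srf and Nfatc1 higher and Cd69 lower in T cells, again out of a fit in which 11.8% of genes were called. Markers of other cells in T cells were at 43.3, 50.9, 41.5 and 46.5 CPM for the B cell list, 304, 310, 277 and 306 CPM for plasma cells and 2613, 2728, 2658 and 2534 CPM for myeloid cells in WT1, KO1, WT2 and KO2. The myeloid sum was led by Lgals3, at 1143, 1061, 1296 and 1078 CPM, and of the 30 genes 8 were higher and 9 lower in both Bcl3-/- libraries than in both WT libraries, against 24.2% and 19.0% of all genes tested. Among them S100a9 was at 94.5, 180, 45.4 and 128 CPM, Ngp at 18.5, 32.5, 10.3 and 30.5 CPM and Lyz2 at 155, 129, 149 and 96.5 CPM, and their part in the T cell results was not tested. The part of handling in the level of Jun was not tested.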

How the data were processed

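The authors sorted GP33 tetramer-positive CD8+ cells from the spleens of 2 chimeras, made 4 libraries with the 10x Genomics 3′ kit (version 2), and deposited the UMI counts of every barcode, neither normalized nor filtered. Per the submitters' processing notes, bcl2fastq 2.17, Cell Ranger 2.2.0 and the build mm10 were used. The libraries held 21193300 (WT1), 22922219 (KO1), 20358780 (WT2) and 22672343 (KO2) UMIs over all barcodes. A barcode was kept as a cell from 500 genes up, if mitochondrial UMIs were 10% or less, as in the study's methods. Pairs of libraries shared 37 to 63 cell barcodes, against 36.0 to 71.3 from their cell numbers over 737280 kit barcodes.

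Each library was clustered with Seurat 5.3.0 (2000 variable genes, 15 components, resolution 0.8). Naming needed 3 markers that were 2-fold above the other cells and found in 10% of the cluster, with 1 of them among its 10 leading genes. No doublet caller was run, and a KO1 and a KO2 cluster with myeloid genes and Cd3e at T cell level were kept apart. Clusters under 1% were left out of T cells and kept for the other classes. These last 2 choices, the free RNA correction, the check without Cd4 cells and a narrow per-cell gate were made after seeing the data. Levels are CPM within a class with exact Poisson 95% intervals, ratios within a chimera have exact binomial ones, and shares Clopper-Pearson ones. All of these cover counting error only.

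Counts summed per library entered the quasi-likelihood test of edgeR 4.0.16 after filterByExpr and TMM scaling, with no term for chimera in the main fit. Adjustment was by Benjamini-Hochberg at 0.05, with DESeq2 1.42.0 as an alternative. The edgeR test was also run on simulated counts with the same spread setting for every gene and no chimera effect. Such counts cannot show how it behaves on paired libraries. The numbers 1 and 2 pair the libraries, since both libraries of a number come from 1 animal. The deviations of the WT and the Bcl3-/- library of a chimera from their group means had a correlation of 0.291 across 6863 genes above 10 CPM. Named were all 9 members, the genes of the other lists called in a fit (at most 5 per list and direction), and the 5 genes most like Jun and Fos. Srf, Zfp36, Hsp90aa1 and the genes named from the fit with the block or as markers are beyond that rule. The members, lists and tests were chosen with earlier results of these data known. The p-values of the 9 members are not given, since this contrast selected them. Coordinates are from GENCODE vM21 (GRCm38), in which all 9 identifiers were found. Promoter sequences are from RefSeq.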

Additional observations from a re-analysis of the deposited data

Results flagged for a closer look

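For Fos and Jund the log2 ratio of Bcl3-/- over WT had opposite signs in both chimeras between cell classes with at least 10 UMIs in every library. The difference between the classes was not tested in either case, and several of the ratios have counting intervals that span 0. For Fos the ratio was -1.18 in chimera 1 and -0.36 in chimera 2 in T cells, against 1.87 and 2.37 in granulocyte-gene clusters. The T cell interval of chimera 2 was -0.77 to 0.05, the fitted change of Fos in T cells turned to 0.32 when they were taken by a per-cell gate, and the WT granulocyte-gene clusters rest on 15 and 10 Fos UMIs. For Jund the ratio was -0.20 and -0.18 in Lyz2-led myeloid clusters, against 0.05 and 0.41 in B-like cells, 0.43 and 0.16 in plasma-like cells and 0.53 and 0.20 in granulocyte-gene clusters. The 95% counting intervals spanned 0 for both Lyz2-led values (-0.41 to 0.02 and -0.39 to 0.03), for B-like cells of chimera 1 (-0.16 to 0.27), for plasma-like cells of chimera 2 (-0.02 to 0.35) and for granulocyte-gene clusters of chimera 2 (-0.29 to 0.72).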

How the results depend on the processing

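Jun was lower in Bcl3-/- cells in each setting run. Its log2 fold change lay between -1.39 and -1.27 in all cells and between -1.60 and -1.48 in T cells, and between -1.45 and -1.18 and between -1.80 and -1.38 with 1 library left out. The sign of Fos was not stable. In all cells its log2 fold change of 0.26 became -0.12 in cells with at least 800 genes and 0.72 after thinning, and lay between -0.21 (without KO2) and 0.62 (without KO1) with 1 library left out. Granulocyte-gene clusters gave 3.83%, 33.7%, 2.71% and 27.8% of all Fos UMIs in WT1, KO1, WT2 and KO2. T cells gave 29.1%, 15.2%, 30.4% and 14.5% in the same order. The part of this makeup in the all-cell value of Fos was not tested. T cells taken by a per-cell gate on Cd3 genes, a setting added after seeing the data, gave 0.32 in place of -0.72. Fos in T cells was below 0 in 10 of the 11 other settings, and between -1.17 and -0.39 with 1 library left out. The planned gate with no B, plasma or myeloid UMI left 16, 2, 133 and 30 cells in WT1, KO1, WT2 and KO2 and was not fitted. With chimera as a replicate block, 1116 genes were called in all cells and 1306 in T cells, in place of 42 and 30. DESeq2 called 203 and 172, thinning to 1000 UMIs gave 67 in all cells, and in T cells a 5% mitochondrial limit gave 17 and no filter on low counts 6. Leaving out 1 library gave 40 to 228 calls in all cells and 29 to 167 in T cells, the highest without WT1 (228 and 167) and without KO1 (176 and 141), with 47 in T cells without KO2. A lone library is then assumed to vary like the other group. In T cells Fosb, Atf3 and Maff were fitted only without a filter on low counts, and their counts were small. The log2 ratio of Atf3 was 0.38 in chimera 1 (-1.49 to 2.38) and -0.47 in chimera 2 (-2.81 to 1.74). That of Maff was -0.10 in chimera 1 (-2.22 to 2.02). Fosb had too few UMIs in T cells for a ratio, as had Maff in chimera 2.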

Other observations

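The 2 clusters kept apart for carrying myeloid genes at a T cell level of Cd3e (805 CPM in KO1 and 807 CPM in KO2) held 25 and 50 cells. KO1 had 0 Jun and 0 Fos UMIs there, where 3 UMIs would be 28.4 CPM, and KO2 had 1 of each (5.49 CPM, 95% interval 0.139 to 30.6), so neither can be set apart from T cells at this depth. The clusters had Junb at 85.2 and 242 CPM and Jund at 653 and 670 CPM. The noncoding gene Gm11175, which overlaps Jund on the opposite strand, was at 0.975 CPM in T cells of WT1, 2.12 in KO1, 0.743 in WT2 and 8.85 in KO2, while Jund stood at 707 CPM in WT2 and 705 CPM in KO2.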
